A study of Mus musculus with 12 samples.

Results

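The replication-dependent histone genes are described here in natural killer T (NKT) cells, T lymphocytes that recognise lipids held by CD1d. They were taken as every row whose symbol starts with Hist1h, Hist2h, Hist3h or Hist4h, which gave 68 of the 23284 genes listed. These are 6 H1, 18 H2A, 19 H2B, 12 H3 and 13 H4 genes. The rule used names alone and no measured value, but it was chosen with earlier results of these data known. In the GENCODE annotation of the mouse build GRCm38, 54 of the 68 lie on chromosome 13 (the Hist1 cluster), 10 on chromosome 3, 3 on chromosome 11 and 1 on chromosome 6, and 63 have 1 exon. Hist3h2bb-ps is annotated there as a processed pseudogene.

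RNA was sequenced from NKT cells of thymus and liver from C57BL/6 mice, with 12 libraries in 4 groups of 3. The cells were sorted as 7AAD-, CD45R-, CD4-, CD8-, CD1d dimer+ and TCRb+. In the cKO groups the cells came from E8III-Cre transgenic mice with floxed Rag2, where Cre acts at the CD4+CD8+ double-positive stage, so that the NKT cells are taken to be of double-negative origin. In the YFP+ groups they came from mice with the same E8III-Cre and a Rosa26-loxP-STOP-loxP reporter, which marks cells of double-positive origin. Both kinds of mouse thus carry E8III-Cre, which is driven by an enhancer of the Cd8 locus, and only the cKO mice lose Rag2, so origin and kind of mouse cannot be told apart. The labels give neither ages nor whether replicates are separate animals or pools, and p-values then cover only the spread among the libraries at hand, which may be technical. The titles of the 6 liver libraries and the column headers of the liver values name 1 mouse and their descriptions the other. The titles were followed. Were the descriptions right, each liver difference would change its sign.

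Histone octamers are built of H2A-H2B dimers and an H3-H4 tetramer, and H1 binds the linker DNA between them. The replication-dependent genes are transcribed mainly in S phase, when new DNA has to be packed. Their pre-mRNAs lack introns, and most of the mRNAs end not in a poly(A) tail but in a short stem loop that the protein Slbp binds. Some of them are also known to give polyadenylated RNA, above all in cells that have left the cell cycle. The SMARTer Ultra Low Input kit used for the cDNA is known to prime with oligo(dT), so the levels below are those of RNA that this priming reached.

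The stem loop is printed first because it is the end that oligo(dT) does not bind. A stem of 6 bases starting with GG, a loop of 4 bases starting with TT and the matching stem were searched for. In the GENCODE transcript chosen for each member they were found behind the stop codon in 43 of 68 members. Of 58725 protein-coding transcripts of other genes, all isoforms counted and searched over their whole length, 162 (0.276%) held them. In 15 members the annotated 3' UTR is shorter than 30 bases, and 9 members with a longer one did not hold these letters. The commonest form was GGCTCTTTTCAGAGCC, in 25 members, followed by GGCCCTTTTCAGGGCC in 7, and the 6 forms found differ in the stem or in the loop. In the following stretches, 5' to 3' with 5 bases on each side, the stem is in capitals. They belong to an H2A gene, an H2B gene, an H3 gene, the H4 gene highest in the liver and an H1 gene.
Hist1h2ag: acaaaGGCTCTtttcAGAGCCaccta
Hist1h2bk: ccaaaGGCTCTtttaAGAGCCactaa
Hist1h3e: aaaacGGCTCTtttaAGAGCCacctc
Hist1h4d: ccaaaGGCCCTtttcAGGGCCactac
Hist1h1e: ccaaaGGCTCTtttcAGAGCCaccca
In 22 members the annotated transcript runs on for at least 100 bases past the stem loop. Among them are Hist1h1e with 1153 bases, Hist1h1c with 840 and Hist1h4d with 770, whereas Hist1h2ag ends 23 bases and Hist1h2bk 30 bases behind it.

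The H2A genes are near copies of each other, which bears on how far a value belongs to 1 gene. The median identity of coding sequences between pairs was 91.54% for H2A, 91.79% for H2B, 97.06% for H3, 93.85% for H4 and 70.61% for H1. The median share of a transcript's 50-base words that also occur in a transcript of another gene was 73.01% for H2A, 45.28% for H2B, 61.98% for H3, 39.47% for H4 and 1.125% for H1. Bases 61 to 150 of the coding sequence are shown for 3 H2A genes of chromosome 13, for 1 of chromosome 3 and for the variants H2afx and H2afj, with capitals where a gene differs from Hist1h2ag.
Hist1h2ag: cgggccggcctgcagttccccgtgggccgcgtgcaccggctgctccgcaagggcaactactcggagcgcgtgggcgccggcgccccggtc
Hist1h2an: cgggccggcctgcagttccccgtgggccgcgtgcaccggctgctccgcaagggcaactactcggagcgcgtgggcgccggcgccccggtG
Hist1h2ak: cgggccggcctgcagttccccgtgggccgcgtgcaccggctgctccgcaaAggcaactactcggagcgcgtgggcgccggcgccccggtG
Hist2h2ac: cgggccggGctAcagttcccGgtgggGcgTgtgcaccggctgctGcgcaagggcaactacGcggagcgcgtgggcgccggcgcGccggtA
H2afx: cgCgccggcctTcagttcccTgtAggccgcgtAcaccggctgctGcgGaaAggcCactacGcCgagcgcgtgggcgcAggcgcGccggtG
H2afj: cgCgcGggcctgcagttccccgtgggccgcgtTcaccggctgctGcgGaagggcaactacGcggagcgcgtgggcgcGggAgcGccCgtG
Against Hist1h2ag (chr13:22042460-22042944, minus strand), this window of Hist1h2an holds 1 difference, Hist1h2ak 2, Hist2h2ac 9, H2afj 11 and H2afx 14. All 18 H2A members share a 25-base word with H2afx and with H2afj, and 16 and 14 of them share a 50-base word with these. The shared part of the 2 variants is small. Of the 50-base words of their transcripts 6.142% (H2afx) and 0.2806% (H2afj) occur in a member, and of the 25-base words 10.07% and 4.759%. Values of single genes within a family are therefore uncertain, since the labels do not say how reads common to several copies were assigned. For the same reason the members counted as called below are not separate measurements.

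Most Hist1 H2A genes stand head to head with an H2B gene. Of 12 such pairs found, 11 are on chromosome 13 and 1 on chromosome 3, and their coding starts lie 279 to 335 bases apart. The stretch between the transcript starts of Hist1h2an and Hist1h2bp is shown because Hist1h2an had the largest ratio between liver YFP+ libraries of all pairs described below, and its partner did not follow (RefSeq, GRCm38.p6, chr13:21787249-21787487, minus strand, read towards Hist1h2an, with CCAAT or its reverse complement and TATAAA in capitals).
Hist1h2an and Hist1h2bp: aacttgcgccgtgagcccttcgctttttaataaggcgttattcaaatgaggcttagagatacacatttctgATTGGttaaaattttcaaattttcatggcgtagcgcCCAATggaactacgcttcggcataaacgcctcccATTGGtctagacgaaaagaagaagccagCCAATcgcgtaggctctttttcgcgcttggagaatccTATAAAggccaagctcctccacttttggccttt
RefSeq gave a promoter, from 250 bases before to 50 after the start, for 61 of the 68 members. Searched on both strands, CCAAT was found in 52 of these 61 (85.25%) against 37.39% of all 32817 promoters of this length, and TATAAA in 35 (57.38%) against 13.62%. The octamer ATTTGCAT was found in 13 (21.31%) against 1.737%, in 7 of 17 H2A and 6 of 16 H2B promoters and in 0 of the H1, H3 and H4 promoters. None of the 3 motifs contains another, and in head-to-head pairs 1 match can count for both genes. CCAAT stood in 3 of 12 H4 promoters and in every H1, H2A, H2B and H3 promoter searched.

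The FPKM (fragments per length of transcript and per depth of library) of a library summed to between 187828 and 194655 in thymus cKO. The totals were 198790 to 212688 in thymus YFP+, 450429 to 465304 in liver cKO and 509267 to 558042 in liver YFP+. In both tissues every YFP+ library thus had a larger total than every cKO library, and unscaled sums below carry this difference. Depth is unknown, since the tables hold FPKM alone, and the 2 tissues were normalized in separate tables, so levels are compared within a tissue only. Of the 8 NKT markers all had a mean of at least 1 FPKM in both tissues. Rag2 was listed at 0 in 5 of 6 thymus libraries and in the 3 liver cKO libraries, and at 0.985 to 1.365 FPKM in liver YFP+. In the thymus, cKO replicate 1 held erythroid marker RNA summing to 107.65 FPKM against 0.315 to 14.38 in the other 5 libraries.

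In the thymus, summed histone RNA, most of it from H2A genes, was modestly lower in cKO than in YFP+ cells, and few single genes passed the test. Summed over the 68 members it came to 342, 346 and 346 FPKM in the cKO libraries and to 380, 461 and 506 FPKM in the YFP+ libraries. All 3 cKO libraries lay below all 3 YFP+ libraries, and the ratio of means (cKO over YFP+) was 0.767, or 0.856 after scaling by median ratios. From these bulk libraries, fewer cells of a type and less RNA per cell cannot be told apart. H2A genes made up 74.8 to 81.8% of the summed level in every thymus library, H4 genes 7.99 to 11.1% and H2B genes 3.90 to 7.24%. Without the H2A genes the sums were 62.3, 87.0 and 80.7 FPKM in cKO and 86.4, 86.3 and 106 FPKM in YFP+, with overlapping groups. By family the ratio of means (cKO over YFP+) was 0.738 for H1, 0.752 for H2A, 0.951 for H2B, 1.02 for H3 and 0.706 for H4.

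**Figure D1:**
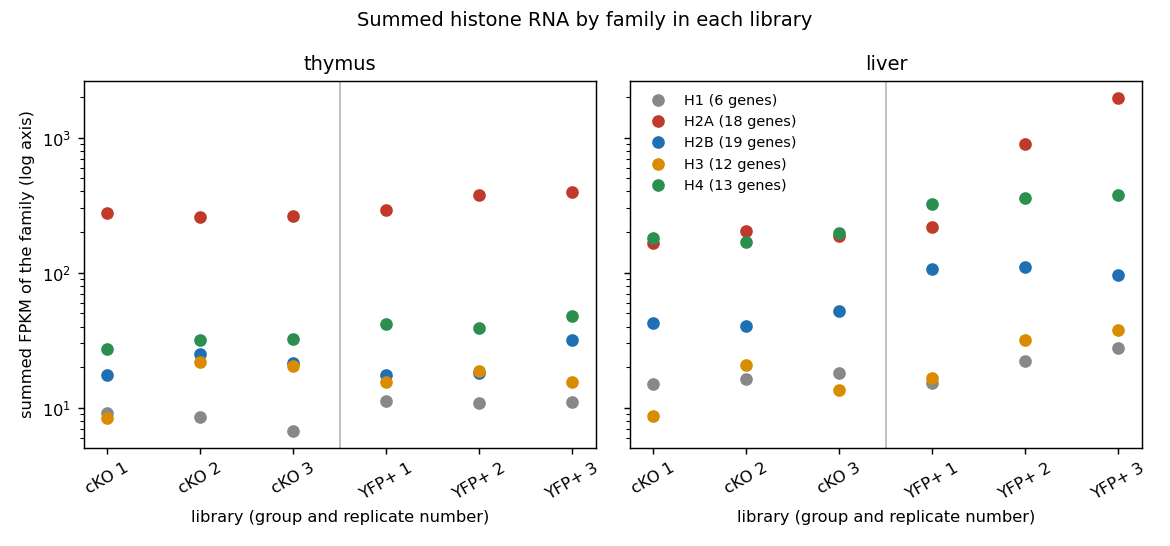
Summed FPKM of each histone family (log axis) in each of the 12 libraries, thymus at the left and liver at the right, 1 point per family and library. In the liver the H2A sum reaches 902 and 1977 in YFP+ replicates 2 and 3 and stays between 166 and 217 in the other 4 libraries.

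Of 45 members with a mean of at least 1 FPKM in the thymus, limma on log2(FPKM + 1) called 5 lower in cKO at an adjusted p under 0.05 and 0 higher (1 higher and 18 lower at an unadjusted p under 0.05). Of all 9097 genes tested 13.1% were called lower and 2.64% higher, so the 5 of 45 are no more than the background. The median member stood at -0.30 (log2 difference, cKO minus YFP+) and the median of all genes at -0.16. With median-ratio scaling these medians were -0.18 and -0.04, with the length trend removed -0.17 and -0.01, and without cKO replicate 1 -0.15 and -0.19. The cKO libraries lay below the YFP+ libraries without overlap for 13 of 45 members, against 37.6% of all genes. The other 23 members had a mean under 1 FPKM and were not tested, and Hist1h2aa was listed at 0 in all 6 libraries.

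The 5 genes were Hist1h2ag, Hist1h2ao and Hist1h2ae of H2A, Hist1h4c of H4 and Hist1h1e of H1. Hist1h2ag, the member with the highest mean FPKM in the thymus, was at 45.7, 37.2 and 37.2 FPKM in cKO and at 49.3, 56.5 and 64.4 FPKM in YFP+ (log2 difference -0.49, SE 0.12, adjusted p = 0.0325). Hist1h4c was at 3.78, 4.11 and 4.10 FPKM in cKO and at 5.63, 6.11 and 7.69 FPKM in YFP+ (-0.57, SE 0.11, adjusted p = 0.0165). For both genes the groups do not overlap, and YFP+ replicate 1 lies nearest to cKO. Hist1h1e, a linker histone, was at 3.08, 2.85 and 1.74 FPKM in cKO and at 4.80, 4.32 and 5.72 FPKM in YFP+ (-0.76, SE 0.16, adjusted p = 0.0217). It showed the largest decrease among the tested members. Of 12 alternative settings, the call of Hist1h4c was lost under 2, that of Hist1h1e under 5, and those of Hist1h2ag, Hist1h2ao and Hist1h2ae under 7, 8 and 9.

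The H2A genes of the Hist1 cluster had like differences in the thymus. All 12 tested had a negative difference, between -0.49 and -0.15, and 3 passed. The other high ones did not pass: Hist1h2ap stood at 26.2 ± 2.94 in cKO against 36.9 ± 6.69 FPKM in YFP+ (mean ± SD, n = 3, adjusted p = 0.0550), Hist1h2ad at 23.5 ± 0.733 against 31.8 ± 6.10, Hist1h2ah at 23.2 ± 0.414 against 30.8 ± 6.70 and Hist1h2ai at 21.4 ± 1.67 against 27.7 ± 4.99. YFP+ replicate 1 was the nearest to cKO for most of them. Without that library 11 of 45 members were called lower, 10 of them H2A genes, where 468 of all 9095 genes were. Hist2h2aa2 of the Hist2 cluster stood at 15.4 ± 2.37 in cKO and at 15.8 ± 1.25 FPKM in YFP+, with overlapping groups, and so did the groups of Hist2h2aa1 and Hist2h2ac.

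Of the other families in the thymus, 0 of 9 tested H2B genes passed (0 also at an unadjusted p under 0.05), with differences between -0.30 and 0.19. Of 8 tested H3 genes 0 passed, and 1 had an unadjusted p under 0.05. That gene, Hist1h3e, was at 0.795, 2.15 and 2.85 FPKM in cKO and at 0.864, 0.795 and 0.828 FPKM in YFP+. Its cKO replicate 1 lay with the YFP+ libraries, and the H3 sum of that library, 8.35 FPKM, was the lowest of the 6 (15.4 to 21.9 in the others). Without that library, 8 of 45 members were called lower and 2 higher (Hist1h3d and Hist1h3e), where 2055 of all 9101 genes were lower and 353 higher. This is also the library with the erythroid RNA, whose part in these values was not tested. All 11 tested H4 genes had a negative difference, between -0.60 and -0.14, and 1 passed. The call count fell to 1 without cKO replicate 3 or without YFP+ replicate 3, and to 3 without YFP+ replicate 2. Of all genes, 437 of 9114, 338 of 9073 and 478 of 9090 were lower in these fits, in that order.

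In the liver, nearly all H2B and H4 genes fell in cKO against YFP+ cells, evenly over the YFP+ libraries, while H2A genes were far higher in 2 of the 3 YFP+ libraries than in the third and in cKO. Summed over the members it came to 412, 449 and 468 FPKM in the cKO libraries and to 680, 1422 and 2517 FPKM in the YFP+ libraries. The groups do not overlap, but the YFP+ libraries differ more among themselves than YFP+ replicate 1 differs from cKO. The ratio of means (cKO over YFP+) was 0.288. Without the H2A genes the sums were 246, 246 and 280 FPKM against 463, 520 and 540 FPKM, a ratio of 0.507, and without YFP+ replicates 2 and 3 the ratio over all members was 0.652.

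Of 60 members tested in the liver, 33 were called lower in cKO and 0 higher with limma (46 lower and 1 higher at an unadjusted p under 0.05), where 19.7% of all 9591 genes tested were called lower and 7.49% higher. The median member stood at -0.98 and the median of all genes at -0.11. With median-ratio scaling these medians were -0.88 and -0.02. With the length trend removed they were -0.54 and 0.01, and without YFP+ replicates 2 and 3 they were -0.45 and -0.04. By family, 14 of 15 H2B, 12 of 13 H4, 5 of 18 H2A, 1 of 9 H3 and 1 of 5 H1 genes were called lower. Near copies may draw on the same reads, so these counts do not add up independent results. The cKO libraries lay below the YFP+ libraries for 39 of 60 members, against 29.6% of all genes, and above them for 2. When a trend of the values with transcript length was removed, 727 of all 8612 genes were lower and 890 higher. Of the 60 members, 15 were then called lower and 2 higher (Hist2h2bb and Hist4h4). Without YFP+ replicates 2 and 3, 20 were called lower, 12 H2B and 8 H4 genes, all of them among the 33. Without YFP+ replicate 1, 50 of the 60 members were called lower, among them all 18 H2A genes, where 2023 of all 9619 genes were.

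**Figure D2:**
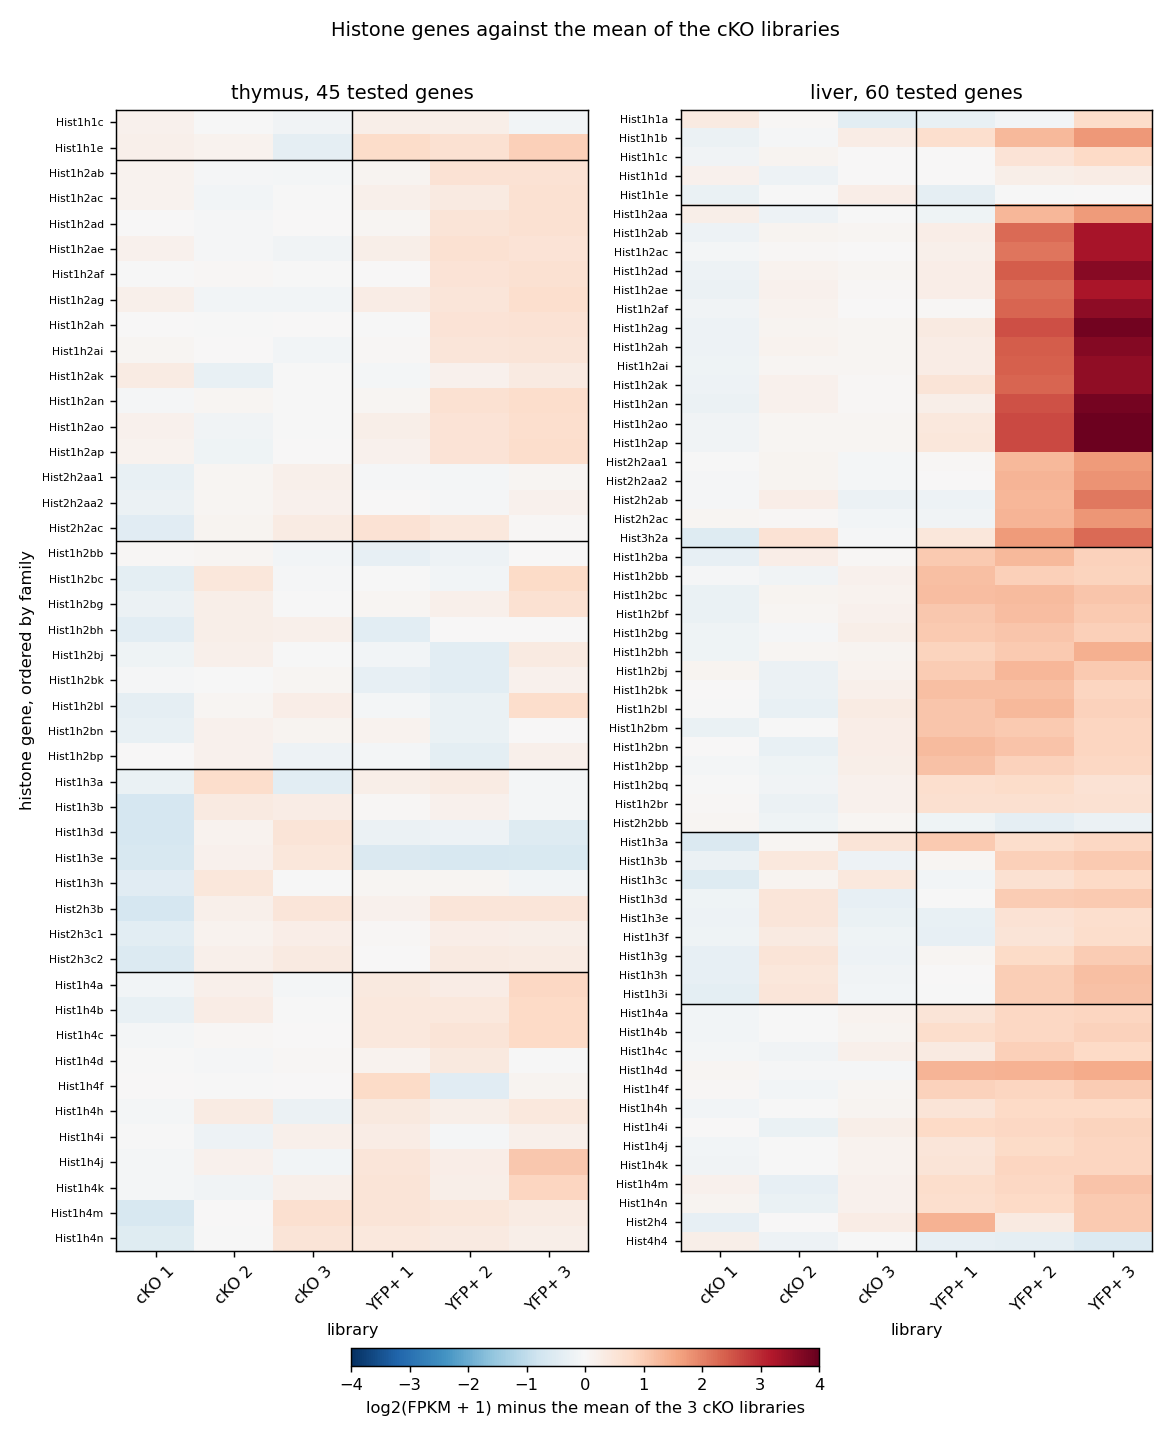
Each tested histone gene (rows, by family from H1 at the top to H4) in each library (columns), as log2(FPKM + 1) minus the mean of the 3 cKO libraries of that tissue, thymus at the left and liver at the right. In the liver the H2B and H4 rows other than Hist2h2bb and Hist4h4 are raised in all 3 YFP+ libraries, and the H2A rows in YFP+ replicates 2 and 3.

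The H2B genes gave the most even picture in the liver. Their sum was 42.8, 40.5 and 52.5 FPKM in cKO and 106, 110 and 96.4 FPKM in YFP+. The groups are far apart and the spread within each is small, and the ratio of means (YFP+ over cKO) was 2.31. Hist1h2bc, whose annotated transcript has 2 exons and which is known in other cells to give polyadenylated RNA, was at 3.05, 4.32 and 4.44 FPKM in cKO and at 10.6, 10.8 and 9.53 FPKM in YFP+ (log2 difference -1.21, SE 0.14, adjusted p = 9.59e-04). Hist1h2bf was at 2.22, 3.07 and 3.30 FPKM against 7.14, 8.02 and 7.00 FPKM (-1.13, SE 0.14, adjusted p = 0.00132). Hist1h2bj was at 4.59, 3.34 and 4.65 FPKM against 9.47, 11.9 and 9.72 FPKM (-1.13, SE 0.15, adjusted p = 0.00144). In all 3 genes each YFP+ library lay at more than the highest cKO library, with no library standing apart.

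The other H2B genes of the Hist1 cluster that were tested behaved alike. Hist1h2bk fell by 1.10 on the log2 scale, Hist1h2bh by 1.12, Hist1h2bl by 1.11, Hist1h2ba by 1.09, Hist1h2bn by 1.08, Hist1h2bg by 1.04, Hist1h2bb by 1.006, Hist1h2bm by 0.998 and Hist1h2bp by 0.97. The near-identical Hist1h2bq and Hist1h2br, whose values are the same in every thymus library, fell by 0.67 and 0.63. The calls of 12 of the 14 H2B genes held under all 13 alternative settings tried, and those of Hist1h2bq and Hist1h2br did not. The member of the family that did not pass was Hist2h2bb, at 3.90 ± 0.449 in cKO against 3.07 ± 0.256 FPKM in YFP+, with every cKO library above every YFP+ library (adjusted p = 0.164). Hist2h2be had its highest value at 0.497 FPKM and was not tested.

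The H4 genes fell almost as evenly in the liver. Their sum was 180, 168 and 196 FPKM in cKO and 324, 356 and 378 FPKM in YFP+, a ratio (YFP+ over cKO) of 1.94. Hist1h4d (chr13:23581598-23582735, plus strand, 1 exon), the H4 gene with the highest level, was at 40.1, 36.0 and 36.6 FPKM in cKO and at 97.4, 101 and 107 FPKM in YFP+ (log2 difference -1.41, SE 0.08, adjusted p = 3.19e-05). Its groups lie far apart and its replicates close together. Of the remaining H4 genes, Hist1h4f fell by 0.93 and Hist1h4i by 0.84, and their calls and that of Hist1h4d held under all 13 alternatives. Hist1h4m, Hist1h4n, Hist1h4b, Hist1h4k, Hist1h4a, Hist1h4h, Hist1h4j and Hist1h4c fell by between 0.70 and 0.89. The calls of these 8 genes were all lost with the length trend removed (adjusted p between 0.0501 and 0.209), and that of Hist1h4c under 6 of 13 alternatives.

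Outside the Hist1 cluster the H4 genes differed. Hist2h4 was at 3.58, 4.78 and 6.06 FPKM in cKO and at 13.9, 6.29 and 10.7 FPKM in YFP+ (-0.92, SE 0.26, adjusted p = 0.0335). Its YFP+ replicate 2 lies just above the highest cKO library, and its call was lost under 7 of 13 alternatives, median-ratio scaling and removal of the length trend among them. Hist4h4, the H4 gene of chromosome 6, was at 7.23, 5.03 and 5.92 FPKM in cKO and at 4.54, 4.42 and 3.76 FPKM in YFP+ (0.42, SE 0.15, adjusted p = 0.0641). Each of its cKO libraries lay above each YFP+ library, but the difference did not pass. It did pass as higher with median-ratio scaling and with the length trend removed.

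The H2A genes split the YFP+ libraries of the liver. Their sum was 166, 203 and 188 FPKM in cKO and 217, 902 and 1977 FPKM in YFP+. YFP+ replicate 1 lay close to the cKO libraries, whereas replicates 2 and 3 lay far above all others and also far from each other. Hist1h2ap was at 7.25, 8.55 and 8.58 FPKM in cKO and at 11.4, 55.3 and 137 FPKM in YFP+ (log2 difference -2.33, SE 0.71, adjusted p = 0.0418). Hist1h2ag was at 11.5, 14.7 and 14.4 FPKM in cKO and at 17.6, 85.5 and 207 FPKM in YFP+ (-2.26, SE 0.71, adjusted p = 0.0470). In both genes all YFP+ libraries were above all cKO libraries, but the SE is far larger than in the H2B genes because of the spread within YFP+.

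The other H2A genes called lower were Hist1h2ao, Hist1h2ak and Hist3h2a, with differences of -2.32, -2.12 and -1.47 and adjusted p of 0.0423, 0.0369 and 0.0398. The 13 that did not pass include Hist1h2an, at 9.18, 12.3 and 11.3 FPKM in cKO and at 12.9, 68.6 and 169 FPKM in YFP+ (-2.20, SE 0.74, adjusted p = 0.0585). Hist1h2ad, Hist1h2ah and Hist1h2ai, with levels of 183 to 201 FPKM in YFP+ replicate 3, had adjusted p of 0.0535, 0.0525 and 0.0503. None of the H2A genes passed when YFP+ replicate 2, YFP+ replicate 3, cKO replicate 1 or cKO replicate 3 was left out. Nor did any pass with the length trend removed, with no filter on low values or with a minimum mean of 0.1 FPKM. With a replicate block 14 passed, and without YFP+ replicate 1 all 18. Of 13 alternatives, the call of Hist3h2a was lost under 8, those of Hist1h2ak, Hist1h2ao and Hist1h2ap under 9 and that of Hist1h2ag under 10.

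Within YFP+, the 17 H2A genes with at least 0.5 FPKM in replicate 1 were 3.26 to 13.1 times as high in replicate 3 as in replicate 1 (median 9.95) and 2.45 to 5.33 times as high in replicate 2 (median 4.40). The remaining one, Hist1h2aa, was at 0.285, 2.66 and 3.77 FPKM. Over all 9535 tested genes with that minimum, the median ratios were 1.06 for replicate 3 and 1.04 for replicate 2. The 17 H2B genes had medians of 0.889 and 1.02, and the 13 H4 genes 1.23 and 1.10. The 11 H3 genes lay between, with medians of 2.59 and 2.28. Against the mean of the cKO libraries, the 12 H2A genes of the Hist1 cluster with enough signal stood at a median of 1.22 in YFP+ replicate 1, 5.53 in replicate 2 and 13.1 in replicate 3, and the 4 of the Hist2 cluster at 0.948, 2.67 and 3.60. Hist3h2a of chromosome 11 stood at 1.44, 3.95 and 5.97. The values listed for the genes of chromosomes 3 and 11 thus differed between the YFP+ libraries too, with smaller ratios. Whether reads of chromosome 13 genes contribute to them, or to H2afx and H2afj below, was not tested.

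The head-to-head pairs set H2A and H2B neighbours side by side. In the 10 pairs of chromosome 13 other than that of Hist1h2aa, the H2A gene was 8.63 to 13.1 times as high in YFP+ replicate 3 as in replicate 1 (median 10.9), and its H2B partner 0.719 to 1.03 times as high (median 0.899). For Hist1h2an and Hist1h2bp, whose shared stretch is printed above, the ratios were 13.1 and 0.761. Set against the cKO mean, YFP+ replicate 1 alone gave the reverse order: a median of 1.23 for the H2A gene and of 2.46 for its H2B partner.

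**Figure D3:**
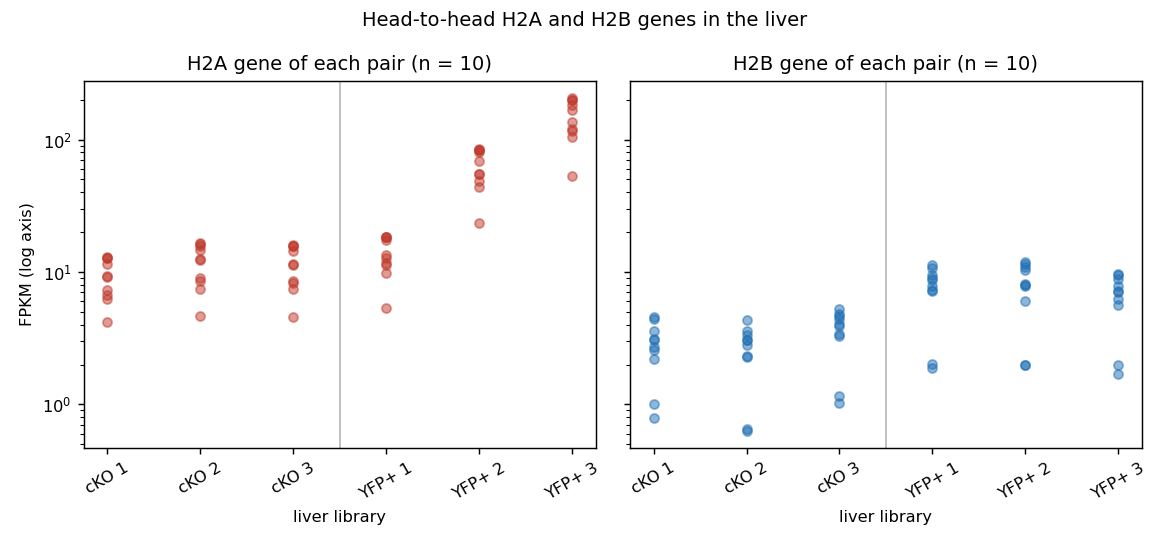
FPKM (log axis) in the 6 liver libraries of the H2A gene (left) and the H2B gene (right) of 10 head-to-head pairs on chromosome 13, 1 point per gene and library. The H2A genes are raised in YFP+ replicates 2 and 3, and their H2B partners are raised by about the same factor in all 3 YFP+ libraries.

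The pattern was not limited to the members. Of the 9535 genes, 47 were in both YFP+ replicates 2 and 3 more than 2 times as high as in replicate 1 and as in each cKO library, of which 17 were H2A members, 0 other members and 30 other genes. Among the 30 were the H2A variants H2afx (4.10, 5.58 and 5.69 FPKM in cKO and 4.53, 25.5 and 41.2 in YFP+), which marks DNA breaks when phosphorylated, and H2afj (5.66, 5.16 and 5.89 against 3.46, 13.3 and 39.8), which was named after its values were seen. The others included Junb, Ltb, Cox5a, Gimap1, Apoe and C1qa, also named after their values were seen. H2afz, a variant with a median coding identity to the H2A members of 60.5% against 81.86% for H2afx and 89.36% for H2afj, was at 362, 350 and 369 FPKM in cKO and at 544, 568 and 454 FPKM in YFP+ (log2 difference -0.53, SE 0.09, adjusted p = 0.00521). Its replicates 2 and 3 did not stand apart from replicate 1. The protocol names 2 library kits without a kit for each library, and the part of the kit in this pattern was not tested.

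Few H3 and H1 genes passed in the liver. The H3 sum was 8.71, 20.9 and 13.6 FPKM in cKO and 16.7, 32.0 and 37.8 FPKM in YFP+, with overlapping groups. Hist1h3a was the H3 gene that passed, at 0.716, 1.73 and 2.66 FPKM against 4.35, 3.23 and 3.57 FPKM (-0.87, SE 0.26, adjusted p = 0.0393), and its call was lost under 12 of 13 alternatives. All 9 tested H3 genes had a negative difference, between -0.87 and -0.30. Among the linker histones, Hist1h1b was at 0.840, 1.06 and 1.62 FPKM against 2.40, 4.28 and 6.08 FPKM (-1.23, SE 0.26, adjusted p = 0.0114), with groups that do not overlap. Its call was lost under 3 of 13 alternatives, removal of the length trend among them. Hist1h1c, also known in other cells to give polyadenylated RNA, stood at 4.70 ± 0.470 against 7.03 ± 2.08 FPKM (n = 3, adjusted p = 0.113) and Hist1h1e at 7.67 ± 1.62 against 6.95 ± 1.12 FPKM (adjusted p = 0.641), both with overlapping groups.

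The make-up of the histone RNA in the liver followed the H2A pattern. H2A genes took 40.1 to 45.2% of the summed level in the cKO libraries, 31.9% in YFP+ replicate 1, 63.4% in replicate 2 and 78.6% in replicate 3. H4 genes took 37.5 to 43.6% in cKO and 47.7, 25.01 and 15.02% in the YFP+ libraries. In this respect the 3 cKO libraries resemble each other, and the 3 YFP+ libraries do not.

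The difference between the tissues was tested in 1 model over all 12 libraries, as the liver difference minus the thymus difference. The deposited thymus values are labelled paired and the liver values single, so tissue and whatever this label stands for cannot be told apart. Of 59 members tested, 12 were called lower, that is more reduced in liver cKO than in thymus cKO, where 5.91% of 9739 genes were, and 1 was called higher, where 9.14% were. The median member stood at -0.93 and the median of all genes at 0.06, with 55 of 59 members negative. Without liver YFP+ replicates 2 and 3 the median member stood at -0.12 (31 of 53 negative) and all genes at 0.13, and with the length trend removed at -0.60 and 0.02. The 12 were 8 H2B genes, 3 H4 genes and Hist1h1b, and 0 of 17 H2A genes passed with limma (7 at an unadjusted p under 0.05), all 17 with negative differences. The smallest p belonged to Hist1h4d, at -1.24 (SE 0.14, adjusted p = 2.30e-04), followed by Hist1h2bb at -1.19 (SE 0.18, adjusted p = 0.00140) and Hist1h2bk at -1.29 (SE 0.23, adjusted p = 0.00366). The gene called higher was Hist1h1e, lower in thymus cKO and not in liver cKO, at 0.88 (SE 0.25, adjusted p = 0.0363). Of the 12 called lower, Hist1h1b, Hist1h2bf and Hist2h4 had a mean under 1 FPKM in the thymus, where the log2 scale understates changes. Without liver YFP+ replicate 1, 29 of 58 members were called, all lower, where 662 of 9721 genes were lower.

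**Figure D4:**
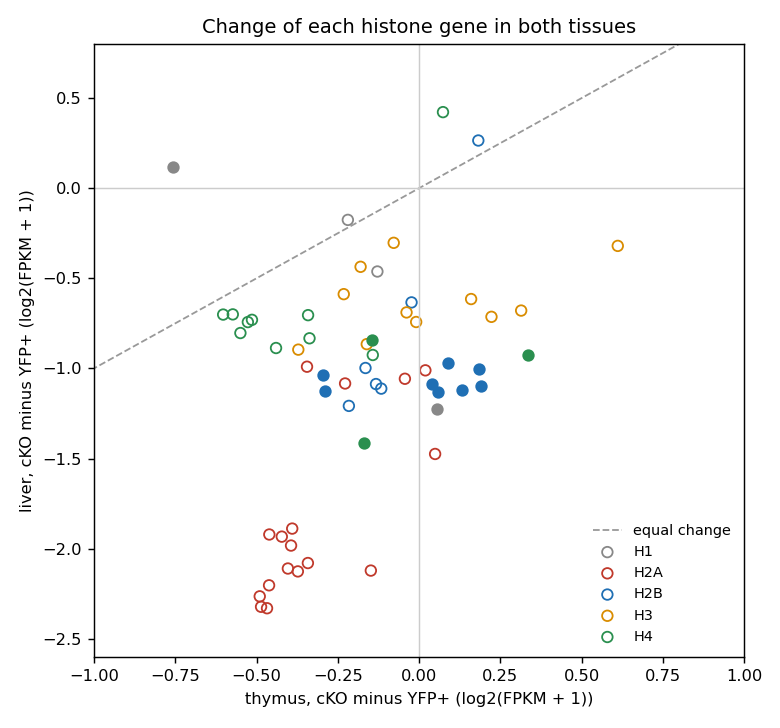
Change of each of 59 histone genes between cKO and YFP+ in the thymus (horizontal) and in the liver (vertical), as the difference of mean log2(FPKM + 1), coloured by family, with filled points for the 13 genes whose changes differed between tissues and a dashed line of equal change. All filled H2B points lie between -0.30 and 0.19 in the thymus and between -1.13 and -0.97 in the liver, and the open H2A points of the Hist1 cluster lie lowest.

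Genes that work with these histones were read from lists of their own. Of 28 tested DNA replication genes in the liver, 16 were lower and 1 higher in cKO, where 19.7% of all genes were lower and 7.49% higher. Among them were Tk1, thymidine kinase (-1.45), Gins2, a helicase subunit (-1.19), and Pcna, the replication clamp (-0.72, adjusted p = 0.00168), and the one that was higher was Tyms, thymidylate synthase (1.02). Of 17 mitotic genes 12 were lower, led by Ube2c (-2.25), Ccnb1 (-2.18) and Ccnb2 (-1.75), while Mki67 did not pass (-0.35, adjusted p = 0.0923). Of 14 histone chaperones 7 were lower, by -0.81 for Chaf1b of the assembly factor CAF-1, -0.72 for Nasp and -0.71 for Rbbp7 where the difference was largest. The list medians were -0.51, -0.91 and -0.43, against -0.11 for all genes.

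Of 16 tested genes of histone RNA processing and histone gene transcription in the liver, 1 was lower and 2 were higher, against those shares of 19.7% and 7.49%, and their median stood at -0.08 against -0.11 for all genes. Slbp, the stem-loop binding protein, was at 75.5, 71.7 and 80.2 FPKM in cKO and at 96.2, 109 and 111 FPKM in YFP+ (-0.47, SE 0.09, adjusted p = 0.00604), with groups that do not overlap. Lsm11, a subunit of the U7 particle that cuts the histone pre-mRNA, was higher in cKO (0.73, adjusted p = 0.00275), and so was Cpsf1 (0.50, adjusted p = 0.00922). Of 9 tested replication-independent histone genes 5 were lower (list median -0.72), among them H3f3b (-1.03), H2afv (-0.72), H3f3a (-0.49) and Cenpa, the centromeric H3 (-1.06).

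In the thymus, where 13.1% of all genes were lower and the median of all genes was -0.16, 8 of 20 DNA replication genes were lower (median -0.29), led by Fen1 (-0.70), Mcm6 (-0.49) and Mcm2 (-0.48), with Pcna at 0.14 (not passed). Of 6 tested mitotic genes (median -0.25) 0 passed (2 at an unadjusted p under 0.05 with limma), and Ccnb1 had a mean under 1 FPKM. Rbbp4, Ssrp1 and Hat1 were the 3 of 14 chaperones (median -0.21) that were lower, with -0.33, -0.34 and -0.36. Of 16 processing genes (median -0.15) 0 passed (7 at an unadjusted p under 0.05), with Slbp at -0.19 (adjusted p = 0.0759). H3f3b (-0.44), H1f0 (-1.12) and Cenpa (-0.68) were the 3 of 10 replication-independent histone genes (median -0.26) that were lower.

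RNA of other cell types moved with the groups. In the liver, markers of double-positive thymocytes summed to 25.3 to 26.3 FPKM in cKO and to 82.8 to 92.8 in YFP+ (10 genes), and all 6 tested were lower in cKO. Erythroid markers summed to 10.5 to 15.8 against 642 to 743 FPKM (8 genes, 4 of 4 tested lower), myeloid markers to 67.1 to 78.7 against 135 to 190 (9 genes, 3 of 5 lower) and B cell markers to 2.43 to 3.53 against 11.1 to 12.2 (7 genes, 2 of 2 lower). All of these were thus higher in each YFP+ library. Hepatocyte markers summed to 12.6 to 16.7 against 37.6 to 43.1 FPKM (6 genes, 1 of 2 lower, 1 gene at 0 throughout), whereas the 2 gamma-delta T cell markers were higher in cKO, at 14.7 to 18.0 against 1.97 to 3.47 FPKM. NKT markers summed to 3036 to 3064 against 3151 to 3459 FPKM (8 genes, 2 lower and 2 higher). The H2A sum was higher in liver YFP+ replicates 2 and 3 than in replicate 1, and so were the hepatocyte and gamma-delta sums. The thymocyte, erythroid, myeloid, B cell and NKT sums were not. These sums do not speak for every gene of a cell type. Apoe and C1qa, named above, were more than 2 times as high in both replicates as in replicate 1, unlike the myeloid sum. In the thymus, double-positive thymocyte markers summed to 6.91 to 8.60 FPKM in cKO and to 17.4 to 22.2 in YFP+, with all 3 tested lower. Hepatocyte markers there summed to 4.33 to 6.27 against 26.2 to 30.4 FPKM and myeloid markers to 1.60 to 1.77 against 2.52 to 2.67, each with 1 of 1 tested lower. NKT markers in the thymus summed to 1127 to 1166 against 1382 to 1556 FPKM (4 of 8 lower), a ratio of means (cKO over YFP+) of 0.793, beside 0.767 for the histone sum. The part of these cells in the histone values was not tested.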

How the data were processed

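RNA-seq of sorted NKT cells gave 12 libraries, 3 in each of 4 groups. Per the submitters' processing notes, TopHat2 2.8.0, Cufflinks 2.1.1 and the build mm9 were used, and the authors deposited FPKM per gene in 2 tables, 1 a tissue; strand, read totals and depth are not given in the sources used here. Groups follow the titles. For each tissue, log2(FPKM + 1) was fitted with limma 3.58.1 (limma-trend, R 4.3.3) over genes averaging 1 FPKM or more, and p-values were adjusted over all tested genes (Benjamini-Hochberg, threshold 0.05). The difference between tissues came from 1 fit of 12 libraries. The log2 scale with a pseudocount of 1 understates changes of low genes. The fit was tested on simulated data. Named are members that passed, the 6 with the highest mean in each tissue, the 3 with the smallest p for the difference, Hist1h1c, Hist1h2bc, Hist2h2be, Hist3h2a and Hist4h4, a few fixed partner genes and up to 3 passing genes of each list; others (Hist1h2aa, Hist1h3d, Hist1h3e, Hist2h2aa1, Hist2h2aa2, Hist2h2ac, Hist2h2bb, H2afj and the genes sharing the H2A pattern) were named after their values were seen. Alternatives were computed for the gene and comparison pairs reported. Members and lists were chosen with earlier results of these data known. Transcript sequences came from GENCODE (GRCm38) and promoters from RefSeq (GRCm38.p6).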

Additional observations from a re-analysis of the deposited data

Results flagged for a closer look

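For 13 histone genes the change between cKO and YFP+ differed between the tissues by the test of the difference itself (limma, liver difference minus thymus difference, 12 libraries). Tissue and the label paired or single of the values cannot be told apart in it. Of H2B genes, Hist1h2bb stood at -1.19 (adjusted p = 0.00140), Hist1h2bk at -1.29 (0.00366), Hist1h2bh at -1.25 (0.0112), Hist1h2bp at -1.06 (0.0114), Hist1h2bj at -1.19 (0.0118), Hist1h2bn at -1.12 (0.0130), Hist1h2bg at -0.74 (0.0426) and Hist1h2bf at -0.84 (0.0431). Of H4 genes, Hist1h4d stood at -1.24 (adjusted p = 2.30e-04), Hist2h4 at -1.26 (0.0234) and Hist1h4i at -0.69 (0.0373). Of the linker histones, Hist1h1b stood at -1.28 (adjusted p = 0.0155) and Hist1h1e at 0.88 (0.0363). In the thymus Hist1h1b, Hist1h2bf and Hist2h4 had mean levels of 0.194, 0.826 and 0.735 FPKM and were not tested there. The pseudocount of 1 understates thymus changes at such levels, so for these genes a difference between the tissues is uncertain. The calls of Hist1h2bb, Hist1h2bk, Hist1h2bp and Hist1h4d held under every one of 19 alternatives. Those of Hist1h1b, Hist1h2bh, Hist1h2bj and Hist1h2bn were lost under 1 alternative each, Hist2h4 under 3, Hist1h1e under 8, Hist1h4i under 13, Hist1h2bg under 14 and Hist1h2bf under 17.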

How the results depend on the processing

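Depth is unknown, groups hold 3 libraries, and reads shared by near-identical copies limit single-gene values and the counts of genes called. Against 5 calls in the thymus, 2 remained with median-ratio scaling, 2 with the length trend removed and 0 with no filter on low values (limma, 19 at an unadjusted p under 0.05); leaving out 1 library gave 1 to 11. Against 33 in the liver, removing the length trend gave 17 and leaving out 1 library 25 to 50. Against 13 for the difference, no filter gave 8, the length trend 8 and leaving out 1 library 9 to 29. Chosen after seeing the data, the fit without liver YFP+ replicates 2 and 3 gave 20 calls in the liver and 7 for the difference, with the remaining YFP+ library assumed to vary like the others. The liver ratio of summed FPKM moved from 0.288 to 0.652 without these libraries and to 0.507 without H2A genes. Replicate numbers did not pair the libraries (correlations of deviations between -0.0465 and 0.0659 in same-numbered pairs other than liver 3, at -0.0634), and a replicate block gave 2 calls in the thymus, 41 in the liver and 12 for the difference. Signs turned in 14 cases, all for differences that did not pass in the fit reported. In the thymus, leaving out 1 library gave -0.040 to 0.084 for H2afj (-0.016 without cKO replicate 2, -0.0011 without YFP+ replicate 2), -0.015 to 0.092 for H2afz (-0.0045 without cKO replicate 1), -0.44 to 0.062 for Hist1h2bc and -0.18 to 0.0021 for Mki67 (0.00083 without YFP+ replicate 2). Hist1h1c turned to 0.027 with the length trend removed, and Mki67 to 0.091 then and to 0.039 with median-ratio scaling. Without liver YFP+ replicates 2 and 3, H2afj in the liver turned to 0.56 (adjusted p = 0.0499), H2afx to 0.14 and the Hist1h1c difference to 0.10. The causes were not tested.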
